A study of Rattus norvegicus with 30 samples.

Results

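The genes described here are 10 widely used markers of fibroblasts and of myofibroblasts, their contractile form: Postn, Fn1, Thy1, Acta2, Tagln, Vim, Pdgfrb, Pdgfra, Dcn and Aspn. They were chosen by gene symbol, with earlier results of these data known, so counts among them set beside shares of all genes are descriptions. Each was measured by the probe set with exactly 1 symbol in the platform annotation and the highest mean over all arrays. All 10 symbols were found, each with 1 such probe set, among 14506 genes measured in all. The genes were followed in primary cells of the rat renal inner medulla, labelled as inner medullary collecting duct cells, on 30 expression arrays in 10 groups of 3.

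Cultures that stayed at one osmolality make up 3 groups, named steady 300, steady 600 and steady 900 after their medium in mosmol/kg. A further 4 groups were moved from 300 to 600 mosmol/kg and taken after 3, 12, 24 or 48 h. In another 2, cells kept at 600 mosmol/kg were moved to 900 mosmol/kg for 12 or 24 h. In the last group cells kept at 900 mosmol/kg were put back at 300 mosmol/kg for 24 h, and they are called returned cells. The labels give neither the solute that set the osmolality, nor how long the steady cultures were kept, nor rat strain or age. The treatment field of every sample names cyclosporin A at 5 µM, an inhibitor of the phosphatase calcineurin, while no title mentions it. Which cultures received the drug is therefore not settled, and the comparisons below assume that all were handled alike. The origin of the replicates (cultures or animals) is not labelled, so the p-values measure only the spread between these arrays, which may be technical.

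Fibroblasts and pericytes are the mesenchymal cells that lay down the matrix between renal tubules. Upon injury they can become myofibroblasts, which assemble stress fibres of α-smooth muscle actin and secrete fibronectin, periostin and collagens, with transforming growth factor beta (TGF-beta) and platelet-derived growth factor (PDGF) as main inducers. These genes are not exclusive to fibroblasts: vimentin, fibronectin and smooth muscle actin are also made by cultured kidney epithelial cells that lose epithelial features. The inner medulla is the part of the kidney whose osmolality changes most with the body's water balance.

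Promoter sequences in RefSeq (build GRCr8) were matched for 5 of the 10 genes: Postn, Acta2, Pdgfra, Vim and Aspn. Those not matched were Thy1, Tagln, Pdgfrb, Fn1 and Dcn. The 250 bases before the start of Postn and of Acta2 are shown, Postn because it had the widest range of the 10 genes over the study and Acta2 because it is the defining gene of myofibroblasts. Both are written from 5′ to 3′ on the gene's own strand. The Postn sequence lies at chr2:140677811-140678060 on the plus strand, and its capitals mark a TATA box. The Acta2 sequence lies at chr1:241172504-241172753 on the minus strand, and its capitals mark in order an MCAT element on the opposite strand and 2 CArG boxes with 1 core mismatch.
Postn: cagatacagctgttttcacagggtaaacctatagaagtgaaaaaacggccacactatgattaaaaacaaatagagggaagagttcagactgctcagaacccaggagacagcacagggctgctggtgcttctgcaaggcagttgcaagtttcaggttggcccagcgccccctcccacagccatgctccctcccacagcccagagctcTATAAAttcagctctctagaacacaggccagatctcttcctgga
Acta2: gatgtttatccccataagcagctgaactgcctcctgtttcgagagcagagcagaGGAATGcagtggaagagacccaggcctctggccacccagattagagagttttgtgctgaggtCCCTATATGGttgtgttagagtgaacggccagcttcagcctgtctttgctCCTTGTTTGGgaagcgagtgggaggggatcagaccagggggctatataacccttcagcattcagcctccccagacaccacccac

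CArG boxes bind serum response factor and MCAT elements bind TEAD factors, and both are known from promoters of smooth muscle genes. In Acta2 the MCAT match lay 196 to 191 bases before the start, and the 2 CArG matches lay 134 to 125 and 84 to 75 bases before it. In Postn the TATA match lay 44 to 39 bases before the start. Both strands of the 5 promoters were searched for the CArG box by name, and for the MCAT element CATTCC, the SMAD box CAGAC, the AP-1 element TGANTCA, the TATA box TATAAA and, by name, the tonicity-responsive element (TonE). The CArG box with 1 core mismatch was added after the sequences had been seen. Of 27457 rat promoters of the same length, 1.5% held a CArG box, 6.73% a CArG box with 1 core mismatch, 11.8% an MCAT element, 42.8% a SMAD box, 6.36% an AP-1 element, 13.1% a TATA box and 5.16% a TonE. An exact CArG box and a TonE matched in 0 of the 5 promoters. The SMAD box matched in Postn, Acta2 and Pdgfra, the AP-1 element in Pdgfra, and the TATA box in Postn and Vim. No match overlapped another.

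The arrays of a group resembled each other, with correlations of 0.991 to 0.998. The median residual SD of a gene, as moderated across genes by limma, was 0.131 on the log2 scale. A weight was also estimated for each array over all genes, lower where an array deviated more from its group. It was lowest for 12 h at 900 replicate 9 (0.127) and 3 h at 600 replicate 3 (0.139). The weights of all other arrays lay between 0.55 and 2.41. The labelled cell type was checked with 12 markers of collecting duct principal cells. In steady 900 against steady 300, 9 of them were higher and 0 lower, against 20.2% and 22.3% of all genes, and 3 did not pass. Aqp2, the vasopressin-regulated water channel, was higher in steady 900 than in steady 300 by a log2 change of 6.44 ± 0.20 (SE), the vasopressin receptor gene Avpr2 by 4.25 ± 0.12 and the urea transporter gene Slc14a2 by 6.24 ± 0.13. The mean log2 value over the 12 markers ran from 8.83 to 8.85 in the steady 900 arrays and from 5.48 to 5.64 in the steady 300 arrays. The steady 300 values lay at or just under the array medians (5.63 to 5.76). By their mean, these markers thus do not bear out the label in the cultures at 300 mosmol/kg. Single markers averaged from 4.67 to 6.64 in steady 300, so some lay above the array medians. In the same arrays 17 markers of epithelial cells averaged 10.36 to 10.41 in steady 900 and 9.95 to 9.97 in steady 300, so markers of epithelial cells were present at both osmolalities. Of the leukocyte markers 12 were measured, and their mean ran from 6.24 to 6.38 in steady 900 and from 8.20 to 8.31 in steady 300. The macrophage gene Vsig4 averaged 3.63 in steady 900 and 11.14 in steady 300. Some markers of leukocytes were thus measured at high values beside those of epithelial cells in the cultures at 300 mosmol/kg. Single leukocyte markers averaged from 3.49 to 11.14 in steady 300.

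All 10 genes varied among the 10 groups (limma's moderated F test, adjusted p from 1.13e-24 for Postn to 0.0316 for Pdgfra), as did 73.7% of all genes. The distance between the lowest and the highest group mean was 50.6-fold for Postn, 19.0-fold for Thy1, 12.6-fold for Fn1 and 9.76-fold for Aspn, and 1.35-fold for Pdgfra. Postn had the 22nd widest range of all 14506 genes. Acta2, Postn, Tagln, Thy1 and Vim had their highest mean in steady 300 and their lowest in steady 900. Aspn peaked at 48 h after the move to 600, and Dcn in steady 600. The plot of the 10 genes by array shows every value.

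**Figure D1:**
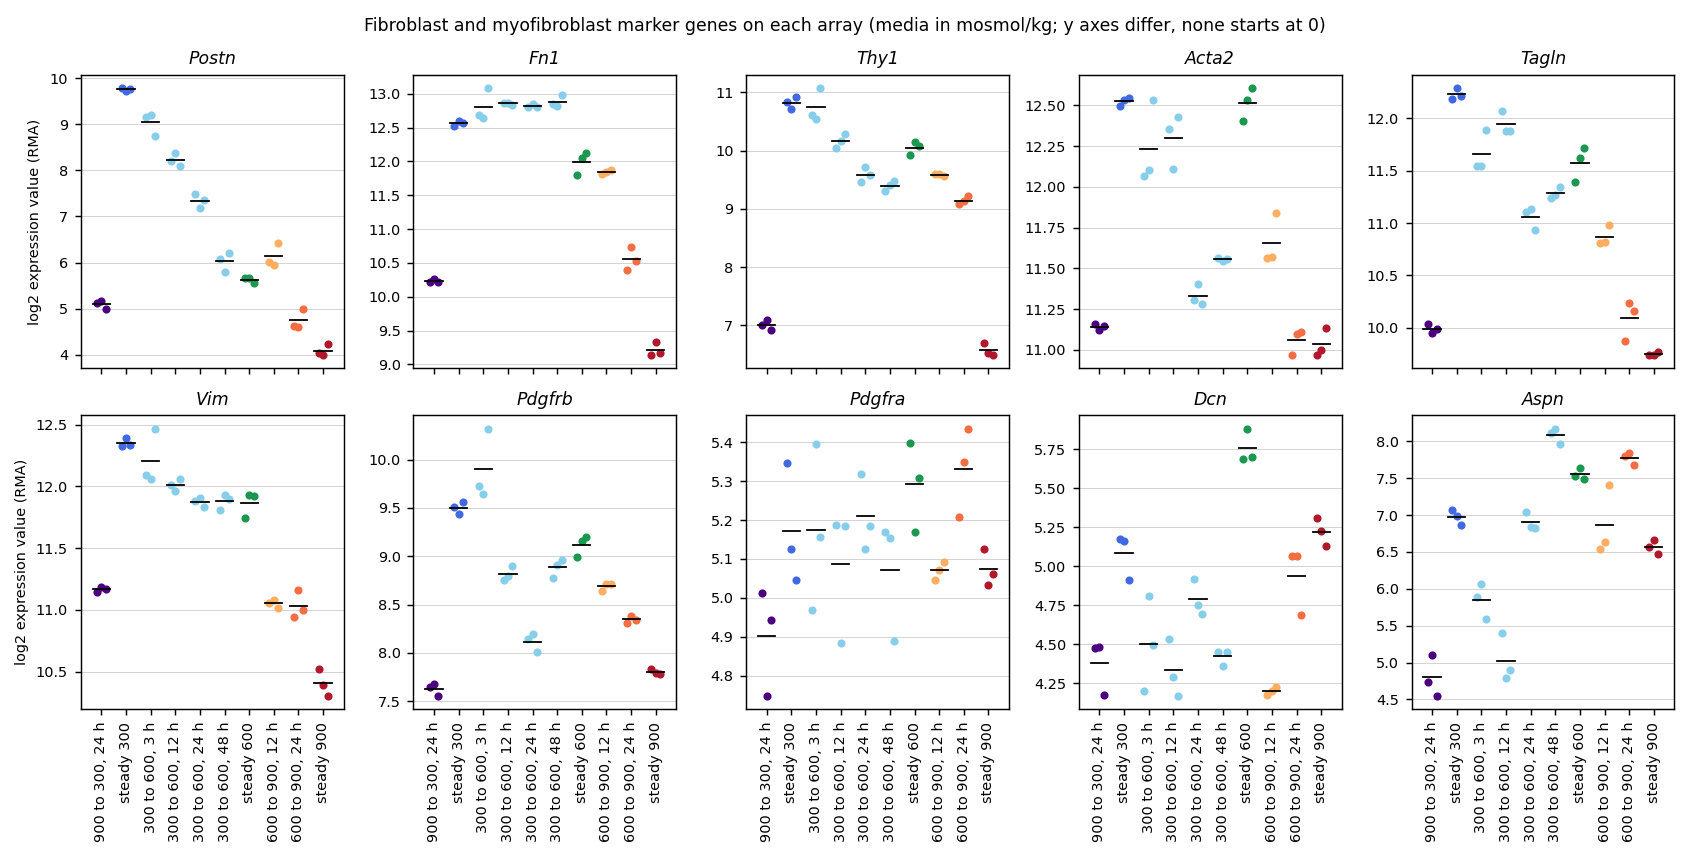
Log2 expression of the 10 genes on each of the 30 arrays, with 1 panel per gene and the 10 groups along the horizontal axis. Points are arrays, black lines are group means (n = 3), and the vertical axes differ and do not start at 0. The 3 steady 900 arrays of Postn lie between 4.00 and 4.23, those of steady 300 between 9.71 and 9.79.

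The steady cultures address how cells kept at a higher osmolality differ from cells at a lower one. Between steady 600 and steady 300, 6 of the 10 genes were lower and 2 higher, while 13.4% of all genes were lower and 13.7% higher at the same threshold (limma, Benjamini-Hochberg adjusted p under 0.05). Between steady 900 and steady 600, 9 were lower and 0 higher, against 12.9% and 11.3% of all genes. Between steady 900 and steady 300, 7 were lower and 0 higher, against 22.3% and 20.2%. In either direction 27.1%, 24.2% and 42.4% of all genes passed in these 3 comparisons. The median log2 change of the 10 genes was −0.44, −1.47 and −1.82 in the 3 comparisons, beside 0.01, −0.01 and −0.00 over all genes. In bulk samples such as these, fewer cells of a type and less RNA per cell cannot be told apart. The leukocyte, epithelial and collecting duct markers moved between the same groups, and their part in the changes of the 10 genes was not tested.

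The matrix genes Postn and Fn1 fell at different steps. Postn encodes periostin, a secreted protein of the matrix around activated fibroblasts. It had log2 values of 9.79, 9.71 and 9.77 in steady 300, 5.66, 5.66 and 5.57 in steady 600, and 4.05, 4.00 and 4.23 in steady 900. No group overlapped another, and most of the distance lay between 300 and 600. Postn was 17.5-fold lower in steady 600 than in steady 300 (log2 change −4.13 ± 0.13, adjusted p = 2.64e-20) and 2.90-fold lower in steady 900 than in steady 600 (−1.54 ± 0.13, adjusted p = 1.72e-10). Fn1 encodes fibronectin, on which cells anchor their actin fibres through integrins. Its log2 values were 12.52, 12.60 and 12.57 in steady 300, 11.80, 12.05 and 12.13 in steady 600, and 9.14, 9.34 and 9.17 in steady 900. Here the groups were close at 300 and 600 and far apart at 900. Fn1 was 1.49-fold lower in steady 600 than in steady 300 (−0.57 ± 0.10, adjusted p = 3.45e-05) and 6.85-fold lower in steady 900 than in steady 600 (−2.78 ± 0.10, adjusted p = 1.84e-18).

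Thy1, a glycoprotein anchored in the membrane of fibroblasts and used to sort them, followed Fn1. It had log2 values of 10.83, 10.72 and 10.91 in steady 300, 9.93, 10.14 and 10.08 in steady 600, and 6.70, 6.52 and 6.49 in steady 900. The 3 groups did not overlap, and the steady 900 arrays stood far below both others. Thy1 was 11.2-fold lower in steady 900 than in steady 600 (log2 change −3.48 ± 0.10, adjusted p = 3.66e-20), and 1.70-fold lower in steady 600 than in steady 300 (−0.77 ± 0.10, adjusted p = 7.79e-07).

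Among the genes of the contractile apparatus, Tagln fell at both steps and Acta2 at the step to 900. Acta2 encodes α-smooth muscle actin, the filament protein that defines myofibroblasts. The log2 values of Acta2 were 12.50, 12.53 and 12.55 in steady 300, 12.41, 12.53 and 12.61 in steady 600, and 10.97, 11.00 and 11.14 in steady 900. The first 2 groups overlapped and the last lay below both. The log2 change of Acta2 between steady 600 and steady 300 was −0.01, with a 95% interval from −0.22 to 0.20 (adjusted p = 0.965), and between steady 900 and steady 600 it was −1.48 ± 0.10 (adjusted p = 1.59e-12). Tagln encodes transgelin, a protein that binds actin filaments. It had log2 values of 12.19, 12.29 and 12.22 in steady 300, 11.39, 11.63 and 11.72 in steady 600, and 9.74, 9.74 and 9.77 in steady 900. The groups were separate at each step. Tagln fell by 0.65 ± 0.10 in steady 600 against steady 300 (log2 scale, adjusted p = 5.17e-06) and by 1.83 ± 0.10 in steady 900 against steady 600 (adjusted p = 1.48e-14). Vim, which encodes the intermediate filament vimentin of mesenchymal cells, had values of 12.33, 12.39 and 12.34 in steady 300, 11.74, 11.93 and 11.92 in steady 600, and 10.52, 10.39 and 10.30 in steady 900. These groups did not overlap either. Its log2 change was −0.49 ± 0.09 between steady 600 and steady 300 (adjusted p = 4.93e-05) and −1.46 ± 0.09 between steady 900 and steady 600 (adjusted p = 9.23e-14).

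Of the PDGF receptors Pdgfrb fell at both steps. Pdgfrb, the receptor β found on pericytes and activated fibroblasts, had log2 values of 9.51, 9.44 and 9.56 in steady 300, 9.00, 9.16 and 9.20 in steady 600, and 7.83, 7.79 and 7.78 in steady 900. It was 2.49-fold lower in steady 900 than in steady 600 (log2 change −1.32 ± 0.11, adjusted p = 8.64e-11). Between steady 600 and steady 300 its change was smaller (−0.38 ± 0.11, adjusted p = 0.00718), a call lost without steady 600 replicate 1 (−0.32, adjusted p = 0.0526). Pdgfra, the receptor α of resident fibroblasts, had values of 5.35, 5.13 and 5.05 in steady 300, 5.40, 5.17 and 5.31 in steady 600, and 5.13, 5.03 and 5.06 in steady 900. Pdgfra thus stayed within a narrow range below the medians of the arrays, which lay between 5.63 and 5.76. Its mean over all arrays of 5.14 lay just above the level used to filter out dim genes (5.05), so its values are low. Pdgfra passed in 0 of the 3 comparisons of steady cultures (log2 changes of 0.12, −0.22 and −0.10, adjusted p = 0.497, 0.16 and 0.516).

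The proteoglycans Dcn and Aspn were the 2 genes that were higher in steady 600. Dcn encodes decorin, which binds collagen fibrils and TGF-beta. It had log2 values of 5.17, 5.16 and 4.91 in steady 300, 5.69, 5.88 and 5.70 in steady 600, and 5.31, 5.23 and 5.13 in steady 900. The steady 600 arrays lay above both other groups, which overlapped. Dcn rose by 0.67 ± 0.13 in steady 600 against steady 300 (log2 scale, adjusted p = 9.25e-05) and fell by 0.53 ± 0.13 in steady 900 against steady 600 (adjusted p = 0.00157). Its mean over all arrays of 4.76 lay below the 30th percentile of the genes (5.05), so its values are dim. Aspn encodes asporin, a relative of decorin that binds TGF-beta too. Its values were 7.08, 6.99 and 6.86 in steady 300, 7.53, 7.64 and 7.49 in steady 600, and 6.56, 6.66 and 6.48 in steady 900. As for Dcn, the values were highest at 600 mosmol/kg. Aspn rose by 0.58 ± 0.17 in steady 600 against steady 300 (adjusted p = 0.00883) and fell by 0.99 ± 0.17 in steady 900 against steady 600 (adjusted p = 3.23e-05). Between steady 900 and steady 300 its log2 change was −0.41 ± 0.17 (adjusted p = 0.0506), and it passed in 6 of 17 alternatives, among them array weights (0.00159), the fit to only these arrays (0.00243) and the filter on dim genes (0.0368).

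**Figure D2:**
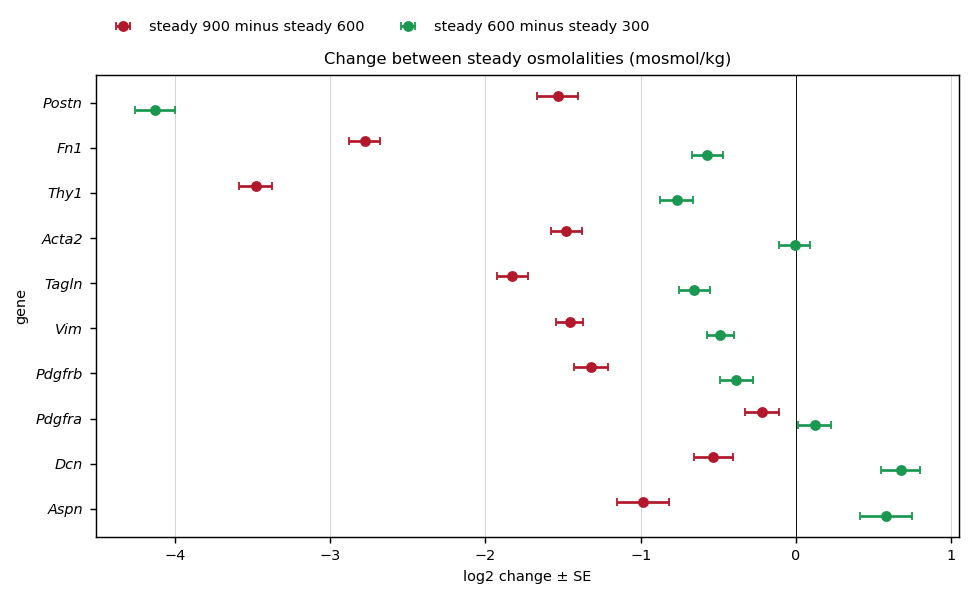
Log2 change of each gene (down) between steady 900 and steady 600 and between steady 600 and steady 300, as points with the standard error of the limma fit. Postn lies further left at the step to 600 (−4.13) than at the step to 900 (−1.54), while Thy1 (−3.48) and Fn1 (−2.78) lie furthest left at the step to 900.

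Whether the change at the step to 900 mosmol/kg differed from that at the step to 600 was tested as a difference of the 2 changes. Both changes use the steady 600 arrays, so a high or low steady 600 group moves them in opposite directions. The difference was lower than 0 for 8 of the 10 genes and higher for 1, against 6.16% and 5.42% of all genes (11.6% in either direction). For Postn it was 2.59 ± 0.23 (adjusted p = 1.03e-09), so the measured decrease at the step to 600 was the larger. For Thy1 it was −2.71 ± 0.18 (adjusted p = 3.92e-12), for Fn1 −2.21 ± 0.17 (adjusted p = 1.02e-10) and for Acta2 −1.47 ± 0.17 (adjusted p = 2.81e-07), which places their larger measured decrease at the step to 900. Postn averaged 5.63 in steady 600 and 4.09 in steady 900, the latter under the level used to filter out dim genes (5.05). Fn1 (12.57 and 11.99) and Acta2 (12.53 and 12.52) were bright in steady 300 and steady 600. Array values flatten at both ends, so decreases there can be understated. The part of this in the differences was not tested. Pdgfra missed the threshold (−0.34 ± 0.19, adjusted p = 0.318).

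The time course after the move from 300 to 600 mosmol/kg shows in which order the genes changed. At 3 h, 5 of the 10 genes were lower and 1 higher than in steady 300, against 29.5% and 12.1% of all genes. At 12 h, 7 were lower and 1 higher, against 22.6% and 11.9%. At 24 h, 6 were lower and 0 higher, against 13% and 9.4%, and at 48 h 7 were lower and 2 higher, against 12% and 9.57%. In either direction 41.6%, 34.5%, 22.3% and 21.6% of all genes passed at the 4 times. The median log2 change of the 10 genes was −0.22, −0.50, −0.83 and −0.64 in this order, beside −0.04, −0.01, 0.01 and 0.01 over all genes. The 4 comparisons share the steady 300 arrays. The share of lower calls among all called genes depended on the scaling of the arrays. It was 70.9% at 3 h, 65.5% at 12 h, 58.0% at 24 h and 55.6% at 48 h as deposited, and 36.6%, 29.9%, 36.7% and 41.2% after median centring, which raised the median change of all genes by 0.17 at 3 h and by 0.17 at 12 h. After quantile normalization it was 50.4% at 3 h, 48.6% at 12 h and 47.6% at 24 h, and after cyclic loess 52.1% at 3 h.

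Postn fell stepwise through all 4 times. Its log2 values were 9.79, 9.71 and 9.77 in steady 300, 9.16, 9.21 and 8.75 at 3 h, and 8.19, 8.37 and 8.09 at 12 h. They were 7.49, 7.17 and 7.35 at 24 h and 6.07, 5.80 and 6.21 at 48 h. No time overlapped the one before it. The change against steady 300 was −0.71 ± 0.13 at 3 h (adjusted p = 6.7e-05), −1.54 ± 0.13 at 12 h (adjusted p = 2.03e-10), −2.42 ± 0.13 at 24 h (adjusted p = 1.53e-14) and −3.73 ± 0.13 at 48 h (adjusted p = 8.67e-19), and each of the 3 steps from one time to the next passed too.

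Thy1 fell from 12 h on, and Fn1 did not fall at any of these times. Thy1 had log2 values of 10.83, 10.72 and 10.91 in steady 300, 10.61, 10.55 and 11.08 at 3 h, 10.05, 10.16 and 10.29 at 12 h, 9.47, 9.72 and 9.58 at 24 h, and 9.31, 9.40 and 9.48 at 48 h. The 3 h arrays spanned those of steady 300 and all later arrays lay below them. Its log2 change was −0.08 ± 0.10 at 3 h (adjusted p = 0.598), which became −0.24 (adjusted p = 0.0336) without 3 h replicate 3, and −1.42 ± 0.10 at 48 h (adjusted p = 1.07e-11). Fn1 had values of 12.52, 12.60 and 12.57 in steady 300, 12.68, 12.64 and 13.09 at 3 h, 12.86, 12.87 and 12.84 at 12 h, 12.81, 12.84 and 12.80 at 24 h, and 12.84, 12.81 and 12.97 at 48 h. Every array after the move lay above the 3 steady 300 arrays. The log2 change of Fn1 was 0.24 ± 0.10 at 3 h (adjusted p = 0.0547), 0.29 ± 0.10 at 12 h (0.0218), 0.25 ± 0.10 at 24 h (0.071) and 0.31 ± 0.10 at 48 h (0.0221), so it passed at 12 and 48 h. The call at 12 h missed the threshold without steady 300 replicate 1 (adjusted p = 0.0715), without 12 h replicate 1 (0.053) and without 12 h replicate 2 (0.0532). The call at 48 h missed it without steady 300 replicate 1 (0.0773) or 3 (0.0531) and without 48 h replicate 3 (0.107). At 3 h Fn1 passed in 8 of 17 alternatives. Its change there was 0.32 after quantile normalization (adjusted p = 0.0034), 0.41 after median centring (0.0012) and 0.46 after cyclic loess (0.000349), and it passed too without 3 h replicate 1 (0.0317) or 2 (0.0193). At 24 h Fn1 passed in 7 of 17 alternatives, with 0.26 after quantile normalization (0.0195), 0.33 after median centring (0.00952) and 0.27 after cyclic loess (0.0404). At 12 h its change was 0.46 after median centring.

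The contractile genes Acta2 and Tagln both fell between 12 and 24 h, and Tagln was already lower than steady 300 at 3 h. Acta2 had log2 values of 12.50, 12.53 and 12.55 in steady 300, 12.07, 12.10 and 12.53 at 3 h, 12.36, 12.11 and 12.43 at 12 h, 11.31, 11.41 and 11.28 at 24 h, and 11.57, 11.55 and 11.56 at 48 h. At 3 h replicate 3 stood within the range of steady 300 and the other 2 arrays below it, while all arrays at 24 and 48 h lay well below. Acta2 fell by 0.96 ± 0.10 at 24 h against 12 h (log2 scale, adjusted p = 1.47e-08), and Tagln by 0.88 ± 0.10 (adjusted p = 6.13e-08). The change of Acta2 at 3 h against steady 300 was −0.29 ± 0.10 (adjusted p = 0.0206), and this call was lost in 8 of 17 alternatives. Among them were the fits without steady 300 replicate 2 (adjusted p = 0.0519) or 3 (0.0565) and without 3 h replicate 1 (0.138) or 2 (0.105), and all 3 other scalings (log2 changes of −0.13 after quantile normalization, −0.12 after median centring and −0.06 after cyclic loess). At 12 h Acta2 had a change of −0.23 ± 0.10 (adjusted p = 0.0795), which passed without 12 h replicate 3 (−0.29, adjusted p = 0.0449).

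Tagln and Vim were lower at 24 and 48 h as well. Tagln had log2 values of 12.19, 12.29 and 12.22 in steady 300, 11.54, 11.54 and 11.89 at 3 h, 12.07, 11.88 and 11.88 at 12 h, 11.10, 11.14 and 10.94 at 24 h, and 11.24, 11.27 and 11.35 at 48 h. All arrays after the move lay below steady 300, those at 24 and 48 h by the most. The change was −0.58 ± 0.10 at 3 h (adjusted p = 3.31e-05; −0.34 after cyclic loess), −1.17 ± 0.10 at 24 h (1.89e-10) and −0.94 ± 0.10 at 48 h (1.54e-08). At 12 h it was −0.29 ± 0.10 (adjusted p = 0.0238), and it missed the threshold without steady 300 replicate 2 (0.0862), without 12 h replicate 2 (0.0819) or 3 (0.0875) and after median centring (−0.12, adjusted p = 0.327). Vim had values of 12.33, 12.39 and 12.34 in steady 300, 12.09, 12.06 and 12.47 at 3 h, 12.01, 11.96 and 12.06 at 12 h, 11.88, 11.91 and 11.83 at 24 h, and 11.80, 11.93 and 11.90 at 48 h. From 12 h on no Vim array reached steady 300. Its change was −0.14 ± 0.09 at 3 h (adjusted p = 0.191), which became −0.27 (adjusted p = 0.00451) without 3 h replicate 3, and −0.47 ± 0.09 at 48 h (adjusted p = 0.000113). At 12 h it was −0.34 ± 0.09 (adjusted p = 0.0025), and −0.17 (adjusted p = 0.0942) after median centring.

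Pdgfrb was high at 3 h and lowest at 24 h. Its log2 values were 9.51, 9.44 and 9.56 in steady 300, 9.73, 9.65 and 10.32 at 3 h, 8.75, 8.79 and 8.90 at 12 h, 8.15, 8.19 and 8.01 at 24 h, and 8.78, 8.91 and 8.97 at 48 h. The 3 h arrays lay above steady 300 and the later arrays below it, with 3 h replicate 3 apart from the other 2. The change at 3 h was 0.40 ± 0.11 (adjusted p = 0.00406), and without 3 h replicate 3 it was 0.18 (adjusted p = 0.0547). It was 0.64 after cyclic loess, and the call was lost when only these arrays were fitted (adjusted p = 0.0999). Pdgfrb was lower at 24 h by a log2 change of −1.39 ± 0.11 (adjusted p = 3.47e-11) and at 48 h by −0.62 ± 0.11 (adjusted p = 6.37e-05), and it rose at 48 h against 24 h by 0.77 ± 0.11 (adjusted p = 2.1e-05). For Pdgfra the changes against steady 300 lay between −0.10 and 0.04, with adjusted p of 0.998, 0.59, 0.868 and 0.59 at the 4 times.

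Aspn fell first and was then higher than at the start. Its log2 values were 7.08, 6.99 and 6.86 in steady 300, 5.89, 6.06 and 5.59 at 3 h, 5.40, 4.79 and 4.89 at 12 h, 7.04, 6.83 and 6.83 at 24 h, and 8.12, 8.17 and 7.97 at 48 h. The 3 and 12 h arrays lay below steady 300, the 24 h arrays overlapped it, and the 48 h arrays lay above it. Its change against steady 300 was −1.95 ± 0.17 at 12 h (adjusted p = 2.51e-10) and 1.11 ± 0.17 at 48 h (adjusted p = 7.29e-06). Between neighbouring times it rose by 1.87 ± 0.17 at 24 h against 12 h (adjusted p = 9.16e-10) and by 1.18 ± 0.17 at 48 h against 24 h (adjusted p = 2.31e-05). Dcn had values of 5.17, 5.16 and 4.91 in steady 300, 4.20, 4.81 and 4.50 at 3 h, 4.54, 4.29 and 4.17 at 12 h, 4.92, 4.75 and 4.69 at 24 h, and 4.45, 4.36 and 4.45 at 48 h. It was below steady 300 at 3, 12 and 48 h, and the 24 h arrays overlapped steady 300. Its change was −0.58 ± 0.13 at 3 h (adjusted p = 0.000423), −0.75 ± 0.13 at 12 h (2.04e-05), −0.30 ± 0.13 at 24 h (0.0947) and −0.66 ± 0.13 at 48 h (0.000176).

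**Figure D3:**
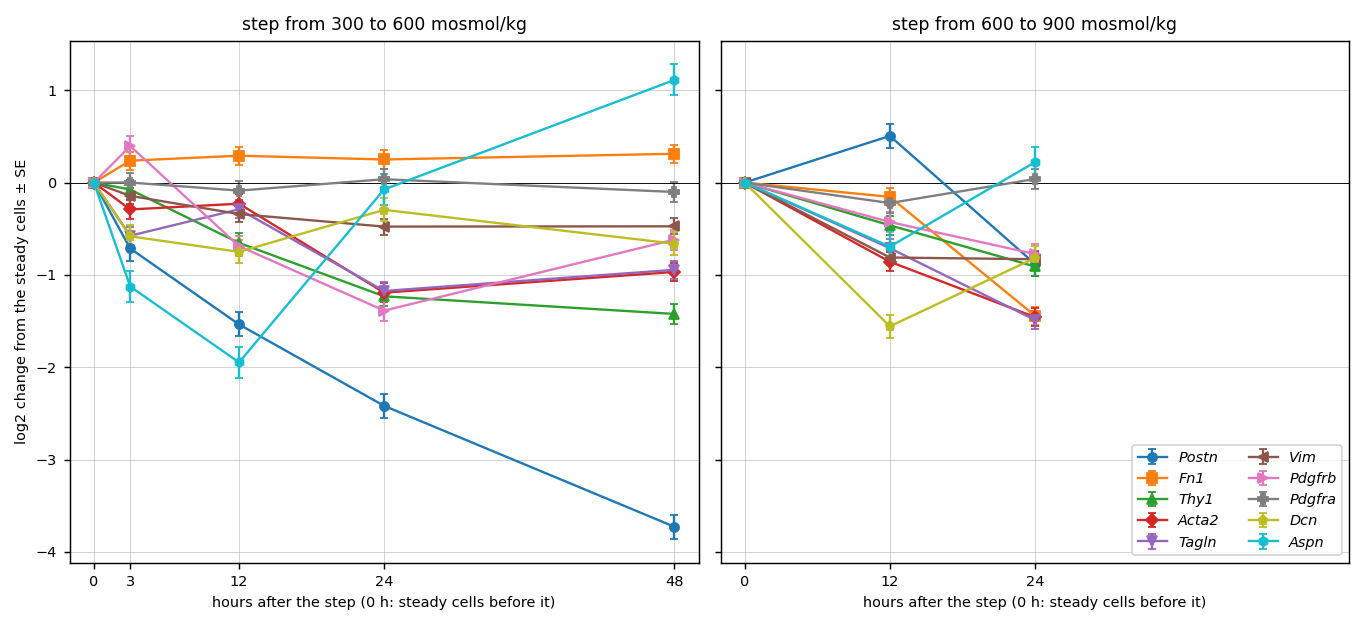
Log2 change of each gene against its starting culture over time in hours, after the move from 300 to 600 mosmol/kg (against steady 300) and from 600 to 900 mosmol/kg (against steady 600), as points with the standard error of the limma fit. Aspn lies at −1.95 at 12 h and at 1.11 at 48 h after the move to 600, while Postn descends to −3.73.

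From one time to the next, 4 of the 10 genes were lower and 1 higher at 12 h against 3 h, against 17.8% and 23.1% of all genes. At 24 h against 12 h, 5 were lower and 2 higher, against 9.51% and 17.5%. At 48 h against 24 h, 1 was lower and 2 higher, against 0.917% and 1.88%, and these 3 were Postn, Pdgfrb and Aspn. In either direction 40.9%, 27% and 2.79% of all genes passed in these 3 steps. The share of lower calls among all called genes was 43.6% for 12 h against 3 h as deposited and 54.9% after cyclic loess. For 24 h against 12 h it was 35.2% as deposited, 57.3% after median centring, 48.0% after quantile normalization and 48.1% after cyclic loess, and for 48 h against 24 h 32.8% as deposited and 43.7% after median centring. The single gene higher at 12 h against 3 h was Tagln (log2 change 0.29 ± 0.10, adjusted p = 0.0217), a call lost in 6 of 17 alternatives, among them the fits without 3 h replicate 1 (adjusted p = 0.109) or 2 (0.103) and without 12 h replicate 1 (0.116), quantile normalization (0.16, adjusted p = 0.141) and cyclic loess (0.10, adjusted p = 0.421). In the same step Vim (−0.20, adjusted p = 0.0703) passed in 6 of 17 alternatives. Its change was −0.31 after quantile normalization (adjusted p = 0.00263) and −0.38 after cyclic loess (0.000712), and it passed too without 3 h replicate 1 (0.0351) or 2 (0.0218), as did Dcn (−0.17, adjusted p = 0.31) without 3 h replicate 1 (−0.32, adjusted p = 0.0479). Dcn was higher at 24 h against 12 h (0.45 ± 0.13, adjusted p = 0.00641), and missed the threshold without 12 h replicate 3 (0.37, adjusted p = 0.0527).

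Cells at 48 h after the move were also set against cells kept at 600 mosmol/kg. There 4 of the 10 genes were lower and 3 higher, against 12.5% and 9.47% of all genes (22% in either direction), and the number called was 4 of 10 without steady 600 replicate 3 or without 48 h replicate 1. Among all called genes 56.9% were lower as deposited and 43.6% after median centring. Dcn was 2.52-fold lower at 48 h than in steady 600 (log2 change −1.33 ± 0.13, adjusted p = 1.16e-09) and Acta2 1.94-fold lower (−0.96 ± 0.10, adjusted p = 1.02e-08). Acta2 had values of 11.57, 11.55 and 11.56 at 48 h and of 12.41, 12.53 and 12.61 in steady 600, and the 2 groups did not overlap. Thy1 was lower too (−0.65 ± 0.10, adjusted p = 1.4e-05), and Fn1 was higher (0.88 ± 0.10, adjusted p = 3.58e-08). The calls of 3 genes were lost when single arrays were left out. Postn, higher at 48 h by 0.40 ± 0.13 (adjusted p = 0.0262), missed the threshold without any 1 of the 3 steady 600 arrays (adjusted p = 0.0535, 0.0508 and 0.0887) and without 48 h replicate 1 (0.0815) or 3 (0.158). Aspn, higher by 0.53 ± 0.17 (adjusted p = 0.0207), missed it without steady 600 replicate 1 (0.0601) or 3 (0.0697) and without 48 h replicate 1 (0.0607) or 2 (0.0764). Tagln, lower by 0.29 on the log2 scale (change −0.29 ± 0.10, adjusted p = 0.0349), missed it without steady 600 replicate 2 (0.112) or 3 (0.192) and without 48 h replicate 1 (0.109) or 2 (0.0912).

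After the move from 600 to 900 mosmol/kg most of the 10 genes were lower at both times. At 12 h 7 of the 10 were lower and 1 higher than in steady 600, against 25.3% and 12.5% of all genes, and at 24 h 8 were lower and 0 higher, against 14.7% and 11.2%. In either direction 37.8% of all genes passed at 12 h and 25.9% at 24 h. Among all called genes 67.0% were lower at 12 h as deposited, 37.8% after median centring, 49.3% after quantile normalization and 53.3% after cyclic loess, and at 24 h 56.7% as deposited and 40.7% after median centring. At 12 h median centring raised the median change of all genes by 0.16 and quantile normalization by 0.10.

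Fn1 fell late and Postn passed through a higher level. Fn1 had log2 values of 11.80, 12.05 and 12.13 in steady 600, 11.81, 11.84 and 11.87 at 12 h, and 10.39, 10.74 and 10.53 at 24 h. The 12 h arrays lay within the range of steady 600, and the 24 h arrays below it. The change was −0.15 ± 0.10 at 12 h (adjusted p = 0.237) and −1.44 ± 0.10 at 24 h (adjusted p = 2.91e-12). Postn had values of 5.66, 5.66 and 5.57 in steady 600, 6.01, 5.96 and 6.43 at 12 h, and 4.63, 4.62 and 5.00 at 24 h. It was above steady 600 on all 12 h arrays and below it on all 24 h arrays, with changes of 0.51 ± 0.13 (adjusted p = 0.00246) and −0.88 ± 0.13 (adjusted p = 4.75e-06). Without the arrays numbered 3 and 9 the change at 12 h was 0.32.

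The contractile genes were lower at both times. Acta2 had log2 values of 12.41, 12.53 and 12.61 in steady 600, 11.56, 11.57 and 11.84 at 12 h, and 10.97, 11.10 and 11.11 at 24 h, and no time overlapped another. Its change was −0.86 ± 0.10 at 12 h (adjusted p = 5.42e-08) and −1.46 ± 0.10 at 24 h (adjusted p = 3.16e-12). Tagln changed by −0.71 ± 0.10 and −1.49 ± 0.10, Vim by −0.81 ± 0.09 and −0.83 ± 0.09, Pdgfrb by −0.43 ± 0.11 and −0.77 ± 0.11 and Thy1 by −0.46 ± 0.10 and −0.91 ± 0.10 at 12 and 24 h, with adjusted p between 1.92e-12 and 0.00204. At 12 h the change of Pdgfrb was −0.27 and that of Thy1 −0.31 after median centring. The values of Vim at 12 h, from 11.02 to 11.08, lay within those at 24 h, from 10.94 to 11.16.

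Dcn and Aspn were again the genes with a low point at 12 h. Dcn had values of 5.69, 5.88 and 5.70 in steady 600, 4.17, 4.20 and 4.23 at 12 h, and 5.07, 5.07 and 4.69 at 24 h. The 12 h arrays lay lowest and the 24 h arrays between the others. The change of Dcn was −1.56 ± 0.13 at 12 h (adjusted p = 4.57e-11) and −0.82 ± 0.13 at 24 h (7.91e-06). Aspn had values of 7.53, 7.64 and 7.49 in steady 600, 6.55, 6.63 and 7.40 at 12 h, and 7.81, 7.84 and 7.68 at 24 h. Its change was −0.69 ± 0.17 at 12 h (adjusted p = 0.00132), where replicate 9 stood apart from the other 2 arrays, and 0.22 ± 0.17 at 24 h (adjusted p = 0.383). Pdgfra had changes of −0.22 and 0.04 (adjusted p = 0.112 and 0.851).

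The changes after the 2 moves were set against each other at 12 and at 24 h. At 12 h the difference of the change at 900 minus that at 600 passed in 7 of the 10 genes, 5 of them lower and 2 higher, against 7.25% and 6.18% of all genes (13.4% in either direction). Among all genes called for this difference 54.0% were lower as deposited and 43.7% after cyclic loess. It was 2.04 ± 0.18 for Postn (adjusted p = 4.02e-09), which fell after the first move and rose after the second, and 1.25 ± 0.24 for Aspn (adjusted p = 0.000371), whose decrease was smaller after the second. For Dcn it was −0.81 ± 0.18 (adjusted p = 0.00179), for Acta2 −0.63 ± 0.14 (0.00236) and for Vim −0.47 ± 0.12 (0.00832). Tagln (−0.42, adjusted p = 0.0448) and Fn1 (−0.45, adjusted p = 0.0315) passed too. The call of Tagln was lost in 14 of 23 alternatives, among them the fits without steady 300 replicate 1 (adjusted p = 0.0962), 2 (0.0541) or 3 (0.0834), steady 600 replicate 2 (0.099) or 3 (0.136), 12 h at 600 replicate 1 (0.13) or 3 (0.0505), or 12 h at 900 replicate 1 (0.0986) or 2 (0.0963). That of Fn1 was lost in 11 of 23, among them the fits without steady 300 replicate 1 (0.0707) or 3 (0.0547), steady 600 replicate 2 (0.0765) or 3 (0.0999), 12 h at 600 replicate 1 (0.0569) or 2 (0.0536), or 12 h at 900 replicate 1 (0.0622) or 2 (0.0526). After cyclic loess Tagln (−0.26, adjusted p = 0.217), Fn1 (−0.25, adjusted p = 0.256) and Vim (−0.28, adjusted p = 0.133) missed the threshold, and so did Fn1 after quantile normalization (−0.29, adjusted p = 0.0966). At 24 h 2 genes were lower and 2 higher, against 5.46% and 7.48% of all genes (12.9% in either direction). Fn1 had the largest difference (−1.69 ± 0.14, adjusted p = 1.13e-09), followed by Postn (1.54 ± 0.18, adjusted p = 5.95e-07) and Pdgfrb (0.61 ± 0.15, adjusted p = 0.00601). Dcn (−0.52, adjusted p = 0.0497) lost its call in 16 of 22 alternatives, among them each fit without 1 array of steady 300, steady 600 or 24 h at 600 (adjusted p from 0.0512 to 0.147) and the fit without 24 h at 900 replicate 9 (0.174). Vim (−0.35, adjusted p = 0.0552) passed in 8 of 23 alternatives, among them quantile normalization (0.0184), median centring (0.0337) and the fits without steady 600 replicate 1 (−0.41, adjusted p = 0.0316) or 24 h at 900 replicate 2 (−0.42, adjusted p = 0.0319).

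At 24 h after the move to 900 mosmol/kg most of the genes had not reached the level of steady 900. Of the 10 genes 7 were higher at 24 h than in steady 900 and 0 lower, against 9.47% and 8.83% of all genes (18.3% in either direction). Thy1 had values of 9.08, 9.13 and 9.22 at 24 h and of 6.70, 6.52 and 6.49 in steady 900, and it was 5.94-fold higher (log2 change 2.57 ± 0.10, adjusted p = 1.77e-16). Fn1 had 10.39, 10.74 and 10.53 at 24 h and 9.14, 9.34 and 9.17 in steady 900, and was 2.52-fold higher (1.34 ± 0.10, adjusted p = 2.75e-11). Aspn was 2.31-fold higher (1.21 ± 0.17, adjusted p = 3.51e-06). Acta2 had 10.97, 11.10 and 11.11 at 24 h and 10.97, 11.00 and 11.14 in steady 900. Its groups overlapped, and the change of 0.02 had a 95% interval from −0.18 to 0.23 (adjusted p = 0.919). Tagln was higher by 0.34 ± 0.10 (adjusted p = 0.0152), and missed the threshold without 24 h replicate 2 (0.27, adjusted p = 0.109) or 9 (0.31, adjusted p = 0.0707).

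Cells returned from 900 to 300 mosmol/kg for 24 h show how far the genes go back. Against steady 900, 4 of the 10 were higher and 2 lower, while 19.3% of all genes were higher and 18.5% lower. Against steady 300, all 10 were lower, while 22.2% of all genes were lower and 20.4% higher. In either direction 37.7% and 42.6% of all genes passed in these 2 comparisons. The median log2 change of the 10 genes was 0.17 against steady 900 and −2.03 against steady 300, beside −0.02 in each over all genes. These 2 comparisons share the returned arrays.

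Fn1 had log2 values of 10.22, 10.26 and 10.22 in returned cells, against 9.14, 9.34 and 9.17 in steady 900 and 12.52, 12.60 and 12.57 in steady 300. Postn had 5.13, 5.18 and 5.00 in returned cells, against 4.05, 4.00 and 4.23 in steady 900 and 9.79, 9.71 and 9.77 in steady 300. Returned cells lay above steady 900 and below steady 300 on every array for both genes. Against steady 900 Fn1 was 2.02-fold higher (log2 change 1.02 ± 0.10, adjusted p = 1.77e-09) and Postn 2.01-fold higher (1.01 ± 0.13, adjusted p = 3.17e-07). Against steady 300 Postn was still 25.2-fold lower (−4.65 ± 0.13, adjusted p = 1.33e-21) and Fn1 5.03-fold lower (−2.33 ± 0.10, adjusted p = 1.01e-17). Vim and Thy1 were the other 2 genes that were higher than in steady 900. Vim had 11.15, 11.19 and 11.17 in returned cells, against 10.52, 10.39 and 10.30 in steady 900 (0.76 ± 0.09, adjusted p = 3.17e-08), and Thy1 had 7.00, 7.09 and 6.92, against 6.70, 6.52 and 6.49 (0.43 ± 0.10, adjusted p = 0.00124).

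Acta2 had 11.16, 11.12 and 11.15 in returned cells, against 10.97, 11.00 and 11.14 in steady 900. The groups overlapped, and the log2 change was 0.11, with a 95% interval from −0.10 to 0.31 (adjusted p = 0.469). Tagln (0.24 ± 0.10, adjusted p = 0.0573), Pdgfrb (−0.17 ± 0.11, adjusted p = 0.237) and Pdgfra (−0.17 ± 0.11, adjusted p = 0.24) missed the threshold as well, though Tagln passed in 5 of 17 alternatives, among them quantile normalization (adjusted p = 0.0223) and array weights (0.0076). Aspn and Dcn were lower. Aspn had 4.74, 5.11 and 4.55 in returned cells, against 6.56, 6.66 and 6.48 in steady 900 and 7.08, 6.99 and 6.86 in steady 300. It thus stood below both steady cultures, 3.40-fold lower than steady 900 (−1.77 ± 0.17, adjusted p = 1.15e-09) and 4.52-fold lower than steady 300 (−2.18 ± 0.17, adjusted p = 5.69e-12). Dcn had 4.48, 4.48 and 4.17 in returned cells, against 5.31, 5.23 and 5.13 in steady 900 and 5.17, 5.16 and 4.91 in steady 300, which places it below both as well (−0.84 ± 0.13, adjusted p = 2.69e-06, and −0.71 ± 0.13, adjusted p = 2.68e-05). The count of 10 lower genes against steady 300 includes Pdgfra at −0.27 ± 0.11 (adjusted p = 0.0433), a call lost in 11 of 17 alternatives. Its values were 5.01, 4.75 and 4.94 in returned cells and 5.35, 5.13 and 5.05 in steady 300, and the call was lost without steady 300 replicate 1 (−0.18, adjusted p = 0.241) or 2 (−0.30, adjusted p = 0.0594) and without return replicate 2 (−0.20, adjusted p = 0.212) or 9 (−0.29, adjusted p = 0.0612).

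**Figure D4:**
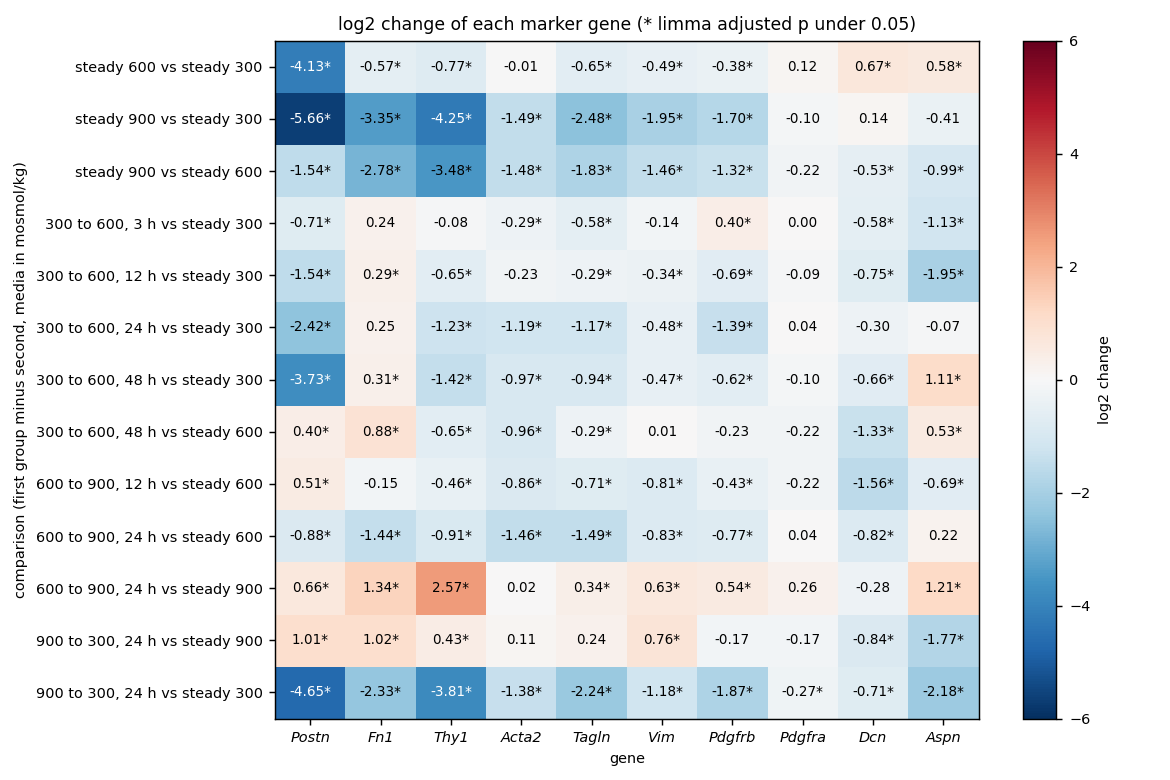
Log2 change of each of the 10 genes (across) in 13 comparisons between groups (down), first group minus second, with the change written in each cell and an asterisk where the limma adjusted p was under 0.05. Returned cells against steady 300 are negative throughout, from −0.27 for Pdgfra to −4.65 for Postn.

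Genes related to the 10 were taken from lists of other fibroblast and matrix genes, contractile and pericyte genes, TGF-beta pathway genes, PDGF ligands and mesenchymal transition factors. Of the other fibroblast and matrix genes 27 of 30 were measured. In steady 900 against steady 300, 19 of the 27 were lower and 2 higher (median log2 change −1.74), against 22.3% and 20.2% of all genes. In steady 600 against steady 300, 15 were lower and 5 higher (median −0.33), against 13.4% and 13.7%, so the number of higher genes was near the share of all genes. In steady 900 against steady 300 Fbln2, a fibulin of elastic matrix, had a log2 change of −4.11 ± 0.11, the collagen receptor gene Ddr2 of −3.20 ± 0.10 and the collagen gene Col5a2 of −2.13 ± 0.07. The 2 higher genes were Cd34 (0.74 ± 0.11), a surface protein of endothelial and some stromal cells, and the proteoglycan gene Prelp (0.65 ± 0.12). Of 9 endothelial markers 3 were higher and 2 lower in the same comparison, against 20.2% and 22.3% of all genes. The higher genes of steady 600 against steady 300 with the smallest adjusted p were Fmod (0.56 ± 0.14), Cd34 (0.42 ± 0.11) and Ogn (0.43 ± 0.13). The call of Cd34 was lost without steady 600 replicate 2 (0.32, adjusted p = 0.0614), and that of Ogn without steady 300 replicate 2 (0.38, adjusted p = 0.0625) or steady 600 replicate 2 (0.35, adjusted p = 0.0813). In returned cells 4 of the 27 were higher and 4 lower than in steady 900, no more than the 19.3% and 18.5% of all genes. Against steady 300, 2 were higher and 17 lower, beside 20.4% and 22.2% of all genes.

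All 18 contractile and pericyte genes were measured, and in 16 of them the change at the step to 900 was lower than that at the step to 600, as it was for Acta2 and for 6.16% of all genes. In steady 600 against steady 300, 7 were lower and 1 higher (median −0.26), against 13.4% and 13.7% of all genes, and in steady 900 against steady 600, 16 were lower and 0 higher (median −1.40), against 12.9% and 11.3%. The calponin gene Cnn1, whose product binds actin, changed by −0.77 ± 0.14 at the first step and by −3.04 ± 0.14 at the second. The pericyte gene Rgs5 changed by −2.85 ± 0.13 and the smooth muscle actin gene Actg2 by −2.44 ± 0.11 at the second step. At 3 h after the move to 600, 7 of the 18 were higher and 6 lower, against 12.1% and 29.5% of all genes, so the number of lower genes was near the share of all genes. The higher ones with the smallest adjusted p were the pericyte genes Abcc9 (0.64 ± 0.07), Notch3 (1.20 ± 0.15) and Cspg4 (0.98 ± 0.14). Pdgfrb was higher at the same time, though its call was lost without 3 h replicate 3 (0.18, adjusted p = 0.0547). At 24 h 13 of the 18 were lower and 0 higher (median −1.18), against 13% and 9.4% of all genes, with Cnn1 at −2.57 ± 0.14 and the smooth muscle myosin gene Myh11 at −1.89 ± 0.11.

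Of the TGF-beta pathway genes 15 of 18 were measured, and 10 were lower and 2 higher in steady 900 against steady 300 (median −0.52), against 22.3% and 20.2% of all genes. The number of higher genes was thus no more than the share of all genes. Ligand genes and regulators of the ligand were among the lower. Inhba, which encodes the activin subunit βA, changed by −3.38 ± 0.13, Ltbp1, whose product holds latent TGF-beta in the matrix, by −2.38 ± 0.10, and the matricellular target gene Ccn2 by −2.01 ± 0.07. The co-receptor gene Tgfbr3 (2.91 ± 0.13) and Smad3 (0.49 ± 0.09), which encodes a signal transducer of the receptors, were higher. At 3 h after the move to 600 the inhibitor gene Smad7 was higher (1.38 ± 0.10). In returned cells Ccn2 (1.29 ± 0.07) and Tgfb2 (1.32 ± 0.14) were higher than in steady 900, and Tgfbr3 was lower (−1.55 ± 0.13).

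All 4 PDGF ligand genes were lower in steady 600 against steady 300, in steady 900 against steady 600 and in returned cells against steady 300, beside 13.4%, 12.9% and 22.2% of all genes. In steady 900 against steady 300 Pdgfb changed by −2.34 ± 0.15, Pdgfc by −2.15 ± 0.11 and Pdgfd by −1.85 ± 0.09. At 48 h after the move to 600, however, 1 of the 4 was lower than in steady 300, and all 4 were higher than in steady 600, against 12% and 9.47% of all genes. Of the mesenchymal transition factors and cadherins 6 of 7 were measured, and all 6 were lower in steady 900 against steady 300, as were 22.3% of all genes, with the smallest adjusted p for the repressor genes Zeb2 (−1.73 ± 0.11), Snai1 (−1.57 ± 0.15) and Zeb1 (−0.80 ± 0.09).

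**Figure D5:**
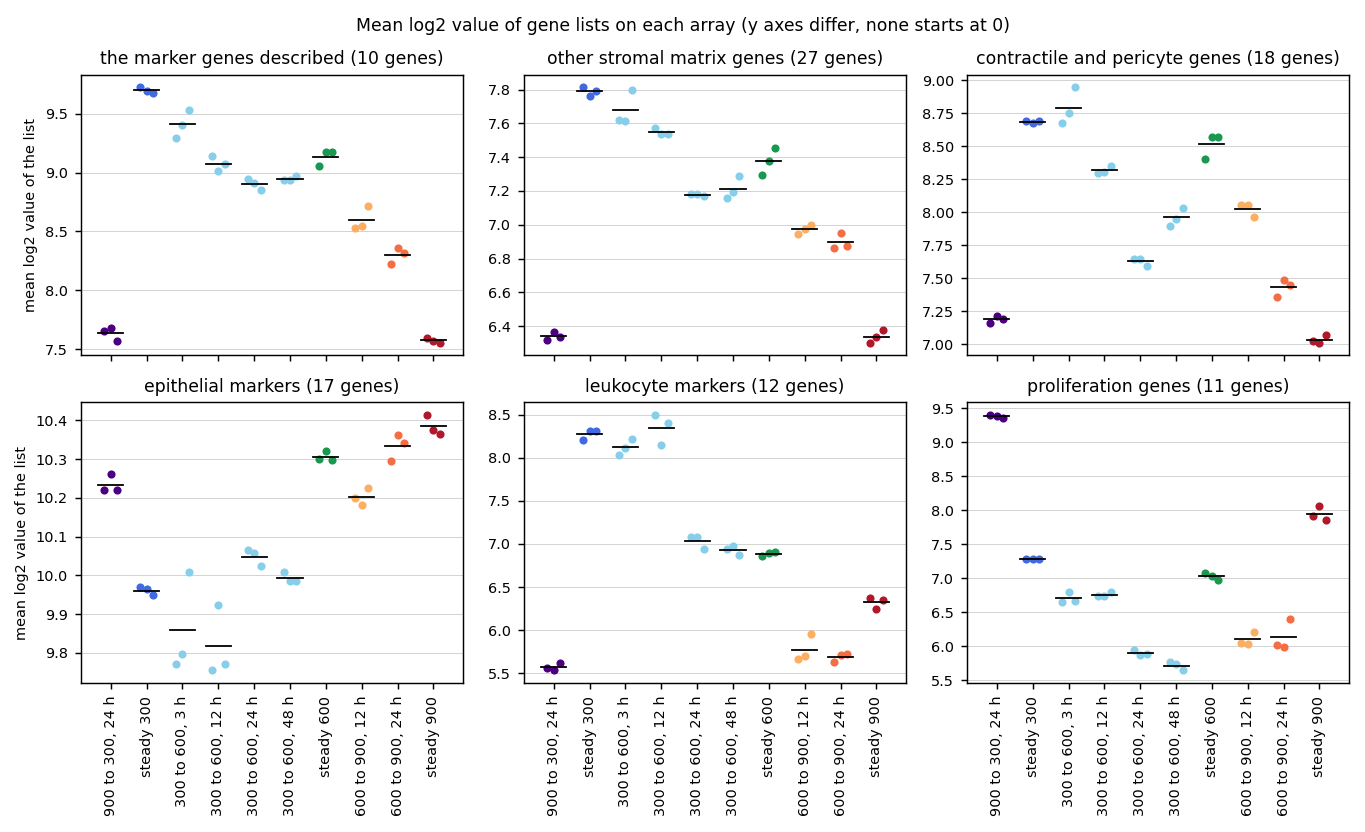
Mean log2 value over the measured genes of 6 lists on each array, with the 10 groups along the horizontal axis and a panel per list. Points are arrays and black lines are group means. The vertical axes differ and do not start at 0. The mean of the 10 genes runs from 7.56 to 7.59 in steady 900 and from 9.67 to 9.73 in steady 300, and that of the 17 epithelial markers from 10.36 to 10.41 in steady 900 and from 9.95 to 9.97 in steady 300.

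Markers of other cells moved with the groups too, in partly different ways. In steady 900 against steady 300, where 20.2% of all genes were higher and 22.3% lower, 9 of 17 epithelial markers were higher and 4 lower, the number of lower ones near the share of all genes. The kidney cadherin gene Cdh16 (1.93 ± 0.07) and the kidney transcription factor gene Pax8 (1.66 ± 0.09) were among the higher. Among the lower were the keratin genes Krt18 (−0.83 ± 0.07), Krt8 (−0.58 ± 0.06) and Krt7 (−0.92 ± 0.10). Of 12 leukocyte markers 11 were lower and 0 higher. Of 9 endothelial markers 3 were higher and 2 lower, and their mean ran from 8.30 to 8.37 in steady 900 and from 7.87 to 7.90 in steady 300. The higher ones were Plvap (2.47 ± 0.17), Emcn (1.95 ± 0.07) and Tek (1.04 ± 0.09), while the endothelial cadherin gene Cdh5 was lower (−1.21 ± 0.11). Of 8 markers of the loop of Henle and proximal tubule 4 were higher and 0 lower, among them the water channel gene Aqp1 (4.33 ± 0.13) and the claudin gene Cldn10 (3.15 ± 0.10). Their mean ran from 6.68 to 6.70 in steady 900 and from 5.29 to 5.43 in steady 300. Single markers of this list averaged from 4.25 to 12.18 in steady 900, so the mean does not stand for each of them. At 24 h at 900 mosmol/kg the mean of the leukocyte markers lay between 5.63 and 5.73, below steady 900 (6.24 to 6.38). Of the 10 fibroblast genes 7 were higher at 24 h than in steady 900 and 0 lower, against 9.47% and 8.83% of all genes. In returned cells 11 of 11 proliferation genes were higher than in steady 900, as were 19.3% of all genes, and their mean ran from 9.35 to 9.40 in returned cells and from 7.86 to 8.06 in steady 900. The mitotic kinase gene Aurkb changed by 2.08 ± 0.11. The part of these other markers in the changes of the 10 genes was not tested.

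Across the 10 group means Postn, Thy1, Acta2, Tagln, Pdgfrb, Vim and Fn1 followed each other, with Pearson correlations of 0.673 to 0.921 in their 21 pairs, the highest for Tagln with Vim. The 24 pairs that include Pdgfra, Dcn or Aspn had correlations of −0.249 to 0.622. These are descriptions over 10 means that share the same arrays for all genes. The 7 genes were set apart after their patterns had been seen, so higher correlations among them follow in part from the split. Correlations over all pairs of genes were not computed as a background.

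The genes whose 10 group means were most like those of each member were found among all genes by the same measure. For Fn1 they were Col11a1 (r = 0.994), Gucy1a2 (0.985) and Adamts7 (0.984), and for Pdgfrb Loxl3 (0.983), Pde8b (0.983) and Numbl (0.980). For Acta2 they were Actg2 (0.975), Cnn1 (0.962) and Prkg1 (0.961), of which Actg2 and Cnn1 belong to the contractile list. For Thy1 they were Col5a2 (0.969), Col1a1 (0.968) and Fndc1 (0.967), for Tagln Mark1 (0.968), Lox (0.967) and Itga5 (0.966), and for Vim Ptgfrn (0.976), B4galnt4 (0.970) and Fstl3 (0.970). Postn was most like Sstr2 (0.968), Rin3 (0.967) and Slc39a14 (0.965). Aspn was most like Tmem202 (0.920), Tmem174 (0.919) and Igfbp5 (0.918). The closest genes of Pdgfra were Mrgprf (0.913), Or52ae10 (0.912) and Or8g26c (0.906) and those of Dcn Cyp2j4 (0.917), Ppef2 (0.901) and Or4c3e (0.875). Olfactory receptor genes, which stand among the nearest for both, had group means of 2.59 to 2.85 for Or52ae10, 2.71 to 2.94 for Or8g26c and 3.86 to 4.09 for Or4c3e.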

How the data were processed

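Total RNA of each of the 30 samples was turned into cDNA with Affymetrix WT kits, biotin-labelled and measured on 1 array, per the labels' protocols. RMA (robust multi-array average) is the tool named in the submitters' processing notes, and its log2 values, as deposited by the authors, were used unchanged. The log base was read from the range of the values, and the version of RMA is not given in the sources used here. Of 29170 probe sets 15310 carried 1 gene symbol in the platform annotation, 323 several and 13537 none. Each of 14506 genes was represented by its single-symbol probe set with the highest mean over all arrays. Array values flatten at the dim and bright ends, so changes there can be understated, and the number of arrays limits the precision.

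Promoter sequences came from RefSeq's GRCr8 assembly. Groups came from the sample titles. limma 3.58.1 in R 4.3.3 was fitted to all genes with 1 mean per group over all 30 arrays (lmFit, eBayes), with Benjamini-Hochberg adjustment of the p-values across the 14506 genes and a threshold of 0.05. Log2 changes carry the standard error (SE) of the fit, and fold changes are taken from them. The differences between the changes at the 2 steps were tested as contrasts of the same fit. The script was tested on simulated data. Replicate numbers are 1, 2 and 3, or 1, 2 and 9 in the 3 groups moved to 900 or back to 300 mosmol/kg. Same-numbered arrays did not deviate together (correlation of deviations over 0.1 in 11 of 114 pairs), so the numbers were not used to pair samples.

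The 10 genes and the lists were chosen with earlier results of these data known. Of each list, in each comparison, at most the 3 genes with the smallest adjusted p in each direction are named, and Aqp2, Avpr2 and Slc14a2 as a check of the cell type. For each of the 10 genes, the 3 genes with the highest Pearson correlation over the 10 group means are named as most alike, without provisional symbols (those beginning LOC, RGD or MGC). Alternatives were quantile normalization, median centring, cyclic loess, a filter at the 30th percentile of the mean, averaging over all single-symbol probe sets of each gene, all probe sets in the adjustment, array weights, trend and robust variance, only the compared arrays, a replicate block, no arrays numbered 3 and 9, and each array left out.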

Additional observations from a re-analysis of the deposited data

Results flagged for a closer look

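For 20 values of the 10 genes, the change at the step to 900 mosmol/kg differed from that at the step to 600 by a test of the difference itself (limma, adjusted p under 0.05). Each of the 10 genes was tested between steady cultures, at 12 h and at 24 h. Of all genes 11.6% passed between steady cultures, 13.4% at 12 h and 12.9% at 24 h. All differences are on the log2 scale, the change at 900 minus the change at 600, and both changes between steady cultures use the steady 600 arrays. A difference above 0 means that the change at the step to 900 was the higher one.

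Between steady cultures, the difference was 2.59 for Postn, −2.71 for Thy1, −2.21 for Fn1, −1.57 for Aspn, −1.47 for Acta2, −1.21 for Dcn, −1.17 for Tagln, −0.97 for Vim and −0.93 for Pdgfrb. Postn was the only one of the 10 genes with a difference above 0 that passed. It averaged 4.09 in steady 900, under the level of the filter on dim genes (5.05), where decreases can be understated.

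At 12 h after the moves it was 2.04 for Postn, 1.25 for Aspn, −0.81 for Dcn, −0.63 for Acta2, −0.47 for Vim, −0.45 for Fn1 and −0.42 for Tagln. At 24 h it was 1.54 for Postn, 0.61 for Pdgfrb, −1.69 for Fn1 and −0.52 for Dcn. Aspn was above 0 at 12 h and Pdgfrb at 24 h, and both were below 0 between the steady cultures. The call of Tagln at 12 h was lost in 14 of 23 alternatives, that of Fn1 at 12 h in 11 of 23, that of Dcn at 24 h in 16 of 22 and that of Vim at 12 h in 1 of 23.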

How the results depend on the processing

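Of 190 tested values of the 10 genes, 134 were called, and 116 of these were called in all alternatives. The other 18 missed the threshold in at least 1, 21 values that were not called passed in at least 1, and 0 called values changed sign. In 62 cases a value that was not called in either setting changed sign. Of 127 values of other named genes 122 were called in all alternatives. The genes that lost calls there were Cd34 and Myocd (2 values each) and Ogn (1). Array weights moved counts the most. With them 4994 genes, against 3242, were called at 24 h after the move to 600 against steady 300, 5130 against 3128 at 48 h, 975 against 405 for 48 h against 24 h (5 of the 10 genes against 3) and 4264 against 2654 for 24 h at 900 against steady 900. For the difference between steps they gave 3084 against 1680 in steady cultures, 3647 against 1947 at 12 h and 3468 against 1877 at 24 h (8 of the 10 genes against 4). When the fit was restricted to the arrays compared, 2976 genes were called for the difference at 24 h. After cyclic loess 4 of the 10 genes were called for the difference at 12 h, against 7. Leaving out 1 array gave 4 to 6 of the 10 genes at 48 h against steady 600, where 7 were called. The causes were not tested. With the replicate block 4008 genes were called in steady 600 against steady 300, where 3935 were called without it. The block moved no count by over 1.5 times, and with it 8 of the 10 genes, against 7, were called in steady 900 against steady 300, 7 against 6 at 3 h after the move to 600 and 3 against 4 for the difference at 24 h. The genes were Aspn (adjusted p = 0.0464 with the block), Fn1 (0.0404) and Dcn (0.0519). For 9 of 30 arrays the mean correlation of deviations with arrays of other groups was highest for those of the same number. The number expected of unrelated arrays was not computed. Dcn has no value under the filter on dim genes. Its mean over all arrays, 4.76, lay under the level of the filter, 5.05.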
